A study of Saccharomyces cerevisiae with 10 samples.

Results

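RNA polymerase II (Pol II) is the enzyme that makes yeast messenger RNAs, and the genes described here are 10 genes that encode its subunits: RPO21, RPB2, RPB3, RPB4, RPB5, RPB7, RPB8, RPB9, RPB10 and RPB11. They were taken by name, as subunit genes, from the 6677 features of each of 2 deposited tables, and all 10 were found in both. The enzyme has 2 further subunits, encoded by RPO26 and RPC10, which are described only for comparison. The data are PAR-CLIP libraries of budding yeast, Saccharomyces cerevisiae: UV light crosslinks a tagged protein to the RNA it touches, and the RNA bound to the purified protein is sequenced. The design text of the study names Pol II as the protein mapped. The labels name the tagged protein, Rpb2, only for the Nrd1-FRB strain, so reading the signal of a gene as RNA crosslinked to Pol II rests on the design text for the Nab3-FRB and cassette libraries.

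The libraries used fall into 3 groups of 2. The first is a Nab3-FRB strain (NabFRB in the labels) given rapamycin, for how long the sources used here do not say. The second is an Nrd1-FRB strain given rapamycin for 45 min, in which the Pol II subunit Rpb2 carries the HTB purification tag (Rpb2HTB_NrdFRB). The third is a strain named NabCassette, titled WT and not given rapamycin, which served as the control for both; what its cassette is, is not given in the sources used here. All cultures grew in synthetic medium with limiting uracil. In anchor-away, rapamycin joins an FRB-tagged protein to a carrier that leaves the nucleus, so the protein is lost there while its gene stays whole, and the RNA of that gene does not check the labels. Strain, rapamycin and loss of the protein changed together, so they cannot be told apart. The other 4 of the 10 samples, Nab3-FRB and NabHTB cultures without rapamycin, were not analysed here. Recovered reads came to 13428820 and 9046857 for the Nab3-FRB libraries (numbered 2 and 3 in the table), 7395659 and 8077260 for the Nrd1-FRB libraries, and 12084304 and 9584474 for the cassette libraries. Nothing in the labels says that a group's libraries are separate cultures, and the p-values therefore reflect a spread between libraries that may be technical.

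Pol II is built around its largest subunits Rpb1 (from RPO21) and Rpb2, which form the active site. A sub-complex of Rpb3, Rpb11, Rpb10 and Rpb12 (from RPC10) is the platform on which the large subunits assemble, and Rpb4 and Rpb7 form a stalk that can leave the enzyme. Rpb5, Rpb6 (from RPO26), Rpb8, Rpb10 and Rpb12 are also subunits of RNA polymerases I and III. Nab3 and Nrd1 are RNA-binding proteins that act with the helicase Sen1 to end short and non-coding Pol II transcripts. Nab3 recognises UCUU and Nrd1 recognises GUAA or GUAG in the emerging RNA.

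The sequences that bear on the genes described first, RPB11 and RPB9, are shown before their values, with RPB2, the gene of the tagged subunit, for comparison. Both RPB11 and RPB9 fell after each depletion, and they are the only members with the core site of the general regulatory factor Reb1 (TTACCCG, searched on both strands) between 250 bases before and 50 bases after the start codon. That site was found in 7.08% of 6001 yeast promoters of this length. How the genes with that site changed was not examined, and a link between site and fall was not tested. In RPB11 its first base lies 163 bases before the start codon, and in RPB9 it reads on the opposite strand from 134 bases before it. RPB2 has a PAC core (GATGAG, both strands, 20.4% of promoters), a motif best known from ribosome biogenesis genes, inside its coding sequence, and 3 matches to TATAAA (both strands, 45.2% of promoters), of which 2 overlap on opposite strands. Capitals mark these matches and the start codon ATG, and each sequence runs 5′ to 3′ along the gene, read from the RefSeq genome, build R64.

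RPB11, chrXV:316126-316425, minus strand: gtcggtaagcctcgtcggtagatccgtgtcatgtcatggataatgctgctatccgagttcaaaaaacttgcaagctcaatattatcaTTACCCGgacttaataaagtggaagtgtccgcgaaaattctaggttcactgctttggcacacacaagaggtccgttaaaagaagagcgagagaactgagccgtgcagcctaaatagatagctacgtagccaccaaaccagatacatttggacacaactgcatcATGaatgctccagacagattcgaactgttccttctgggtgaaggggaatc
RPB9, chrVII:374778-375077, minus strand: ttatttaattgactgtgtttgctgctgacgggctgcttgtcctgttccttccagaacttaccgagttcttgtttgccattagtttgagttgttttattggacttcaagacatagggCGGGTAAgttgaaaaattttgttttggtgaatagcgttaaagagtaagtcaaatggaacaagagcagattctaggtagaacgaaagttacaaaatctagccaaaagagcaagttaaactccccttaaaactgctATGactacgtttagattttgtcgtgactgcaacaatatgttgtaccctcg
RPB2, chrXV:616622-616921, minus strand: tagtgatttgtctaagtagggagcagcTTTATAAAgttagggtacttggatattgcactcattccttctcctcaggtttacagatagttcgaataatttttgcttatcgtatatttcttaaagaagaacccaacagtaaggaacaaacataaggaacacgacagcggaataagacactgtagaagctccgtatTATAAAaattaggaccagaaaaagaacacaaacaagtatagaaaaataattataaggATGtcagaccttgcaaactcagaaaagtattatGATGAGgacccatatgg

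A motif match is only a description of letters. Of the other 7 members, RPO21, RPB3, RPB7 and RPB8 had TATAAA in the window and RPB4, RPB5 and RPB10 had none of these 3 motifs. Longer forms of the Nab3 and Nrd1 sites were searched in the same window on the sense strand. The Nab3 form TCTTG (31.5% of promoters) was in RPB3, RPB5 and RPB9, and the Nrd1 form TGTAG (21.8%) in RPB2 and RPB10. Of the members that fell after Nab3 depletion, RPB5 and RPB10 thus held 1 of these forms and no Reb1 core, RPB9 held TCTTG and the Reb1 core, and RPB11 the Reb1 core alone. Inside the coding sequence, on the sense strand, RPB11 has 1 TCTT (UCUU in RNA) and 1 each of GTAA and GTAG. Those tetramers, in capitals with 10 bases on either side, are the letters that Nab3 and Nrd1 recognise.

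RPB11 TCTT, chrXV:315963-315986: gagcatccctTCTTcgctcgtttc
RPB11 GTAG, chrXV:316072-316095: ccccaacgcaGTAGtgataacgtt
RPB11 GTAA, chrXV:315891-315914: aaaaacgcctGTAAcagcatcatt

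Per kilobase of gene, RPB11 has 2.75 TCTT, against a median of 4.50 over 6002 protein-coding genes, and 5.51 GTAA or GTAG, against a median of 5.18. RPB9 is richer in TCTT, with 8.13 per kilobase, and poorer in the Nrd1 tetramers, with 2.71. RPB8 has the densest TCTT of the members, 11.3 per kilobase, and RPB5 the densest Nrd1 tetramers, 12.3 per kilobase. The 4 members that fell after Nab3 depletion thus range from 1.54 TCTT per kilobase in RPB5 to 8.13 in RPB9, and the 6 that did not pass the test from 1.04 in RPB3 to 11.3 in RPB8.

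The platform subunit gene RPB11 had the lowest signal relative to the cassette of all members in both comparisons. RPB11 (YOL005C, chrXV:315813-316175, minus strand, 1 coding exon) encodes the partner of Rpb3, a protein related to the alpha subunit of bacterial polymerase. Its normalised signal was 675 and 759 in the Nab3-FRB libraries, against 1030.2 and 1036 in the cassette libraries. Both depleted libraries lay below both cassette libraries. The means were 717 ± 59.3 and 1033 ± 3.87 (SD, n = 2 each), a log2 fold change of -0.53 ± 0.07 (SE; 95% interval -0.69 to -0.37; adjusted p = 6.05e-05 by limma), or 1.44-fold lower. In the Nrd1-FRB libraries it was 678 and 668, against 872 and 877 in the cassette libraries of that table, again with no overlap. The log2 fold change was -0.38 ± 0.07 (95% interval -0.54 to -0.21; adjusted p = 0.00720), or 1.30-fold lower. The Nab3 call held in all 13 alternatives of the analysis. The Nrd1 call was lost when either cassette library was left out, with adjusted p = 0.0989 without library 1 and 0.0958 without library 2, while the log2 fold change stayed between -0.39 and -0.37 in all 14. In the authors' deposited table RPB11 also had adjusted p = 2.58e-07 after Nab3 depletion and 0.0143 after Nrd1 depletion.

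The partner of RPB11 in the platform did not show a fall of this size. RPB3 (YIL021W, chrIX:312905-313861, plus strand) had 2432 and 2302 in the Nab3-FRB libraries, against 2403 and 2296 in the cassette libraries. The groups overlap, and the 95% interval of the log2 fold change ran from -0.11 to 0.13 (adjusted p = 0.897). Its Nrd1-FRB values were 1748 and 1867, against 2035 and 1945 in the cassette, with both depleted libraries lower (-0.14 ± 0.06, adjusted p = 0.119). RPB10 (YOR210W, chrXV:738320-738532, plus strand), the shortest member and a platform subunit shared by all nuclear polymerases, had 1988 and 2071 in the Nab3-FRB libraries, against 2341 and 2340.1 in the cassette. It fell by 0.21 on the log2 scale (SE 0.05, adjusted p = 0.00701). The adjusted p was 0.0648 without cassette library 1, 0.0591 without cassette library 2 and 0.0502 in a fit with no variance trend. RPB10 had 1735 and 1871 in the Nrd1-FRB libraries, against 1982.1 and 1982.3 in the cassette, both lower but not past the test (-0.14 ± 0.06, adjusted p = 0.117). The fourth platform gene, RPC10, outside the member list, had 2525 and 2538 in the Nab3-FRB libraries, against 2738 and 2791 in the cassette (adjusted p = 0.0645). It had 1946 and 2145 in the Nrd1-FRB libraries, against 2318 and 2364 in the cassette (adjusted p = 0.0538). Both depleted libraries were lower each time, but neither difference passed.

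RPB9 (YGL070C, chrVII:374459-374827, minus strand), which encodes a subunit that yeast can live without and that acts in start site choice and transcript proofreading, was the other member to fall after both depletions. It had 1443 and 1342 in the Nab3-FRB libraries, against 1691 and 1529 in the cassette libraries, with no overlap. The log2 fold change was -0.21 ± 0.07 (95% interval -0.35 to -0.07, adjusted p = 0.0215). In the Nrd1-FRB libraries it had 1063 and 1197, against 1432 and 1295 in the cassette libraries, also with no overlap. There the log2 fold change was -0.27 ± 0.08 (95% interval -0.47 to -0.08, adjusted p = 0.0412). Both calls were lost with DESeq2 (adjusted p = 0.0731 after Nab3 depletion and 0.0767 after Nrd1 depletion). They were also lost in a limma fit with no variance trend (adjusted p = 0.112 and 0.111). In the authors' deposited tables RPB9 had adjusted p = 0.0790 and 0.0612. Its cassette libraries differed from each other more than those of RPB10 or RPB11, and both calls were lost without cassette library 1 (adjusted p = 0.318 after Nab3 depletion and 0.320 after Nrd1 depletion). The Nrd1 call was also lost without cassette library 2 (adjusted p = 0.0950).

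Neither catalytic subunit gene passed the test in either comparison. RPB2 (YOR151C, chrXV:612997-616671, minus strand), whose protein carries the tag in the Nrd1-FRB strain, had 4952 and 4836 in the Nrd1-FRB libraries, against 4879 and 4870 in the cassette libraries. The groups overlap, and the 95% interval of the log2 fold change was -0.15 to 0.16 (adjusted p = 0.955). In the Nab3-FRB libraries it had 5792 and 5456, against 5762 and 5749 in the cassette (95% interval -0.15 to 0.08, adjusted p = 0.646). RPO21 (YDL140C, chrIV:205360-210561, minus strand), the longest member, had 6459 and 6335 in the Nab3-FRB libraries, against 6827 and 7068 in the cassette libraries. Both depleted libraries were lower, but the difference did not pass the test (-0.12 ± 0.05, adjusted p = 0.0896). It passed with upper-quartile scaling (adjusted p = 0.0258). RPO21 had 6368 and 6023 in the Nrd1-FRB libraries, against 5781 and 5987 in the cassette, both depleted libraries being higher (0.07 ± 0.07, adjusted p = 0.463).

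Of the stalk genes, neither passed the test in either comparison. RPB4 (YJL140W, chrX:150961-151626, plus strand), which encodes the stalk subunit that yeast can live without, had 3075 and 2854 in the Nab3-FRB libraries, against 3116 and 2892 in the cassette, with overlap (adjusted p = 0.816). RPB4 had 2202 and 2464 in the Nrd1-FRB libraries, against 2639 and 2450.2 in the cassette (-0.13 ± 0.07, adjusted p = 0.223), with overlap. RPB7 (YDR404C, chrIV:1276654-1277169, minus strand), the essential stalk subunit, had 908 and 967 in the Nab3-FRB libraries, against 952 and 892 in the cassette, again with overlap (adjusted p = 0.816). RPB7 had 848 and 815 in the Nrd1-FRB libraries, against 806 and 756 in the cassette, both higher (0.09 ± 0.07, 95% interval -0.08 to 0.26, adjusted p = 0.369).

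Of the remaining shared subunit genes among the members, RPB5 passed the test after Nab3 depletion and RPB8 did not; the difference between them was not tested. RPB5 (YBR154C, chrII:548362-549009, minus strand), at the downstream jaw of the enzyme, had 3405 and 3157 in the Nab3-FRB libraries, against 3741 and 3628 in the cassette libraries. It fell by 0.17 on the log2 scale (SE 0.05, adjusted p = 0.0253), the least firmly of the members that passed: the call held in 8 of 13 alternatives and was lost without cassette library 1, cassette library 2 or Nab3-FRB library 3 (adjusted p = 0.197, 0.0667 and 0.141). In the Nrd1-FRB libraries it had 2801 and 3007, against 3168 and 3073 in the cassette (-0.10 ± 0.06, adjusted p = 0.229). RPB8 (YOR224C, chrXV:760825-761265, minus strand) had 1912 and 2032 in the Nab3-FRB libraries, against 2048 and 2089 in the cassette (-0.07 ± 0.06, adjusted p = 0.345). RPB8 had 1715 and 1771 in the Nrd1-FRB libraries, against 1734 and 1769.9 in the cassette (95% interval -0.14 to 0.12). The depleted libraries were lower in the first comparison and overlapped the cassette in the second. RPO26, a shared subunit gene outside the list, whose protein sits at the base of the stalk, had 2865 and 2939 in the Nrd1-FRB libraries, against 3295 and 3265 in the cassette (-0.18 ± 0.06, adjusted p = 0.0465). That call was lost in 6 of 14 alternatives, among them edgeR (adjusted p = 0.0561) and the fit without cassette library 1 (0.314). After Nab3 depletion RPO26 had 3832 and 3703, against 3891 and 3855 in the cassette (adjusted p = 0.568).

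**Figure D1:**
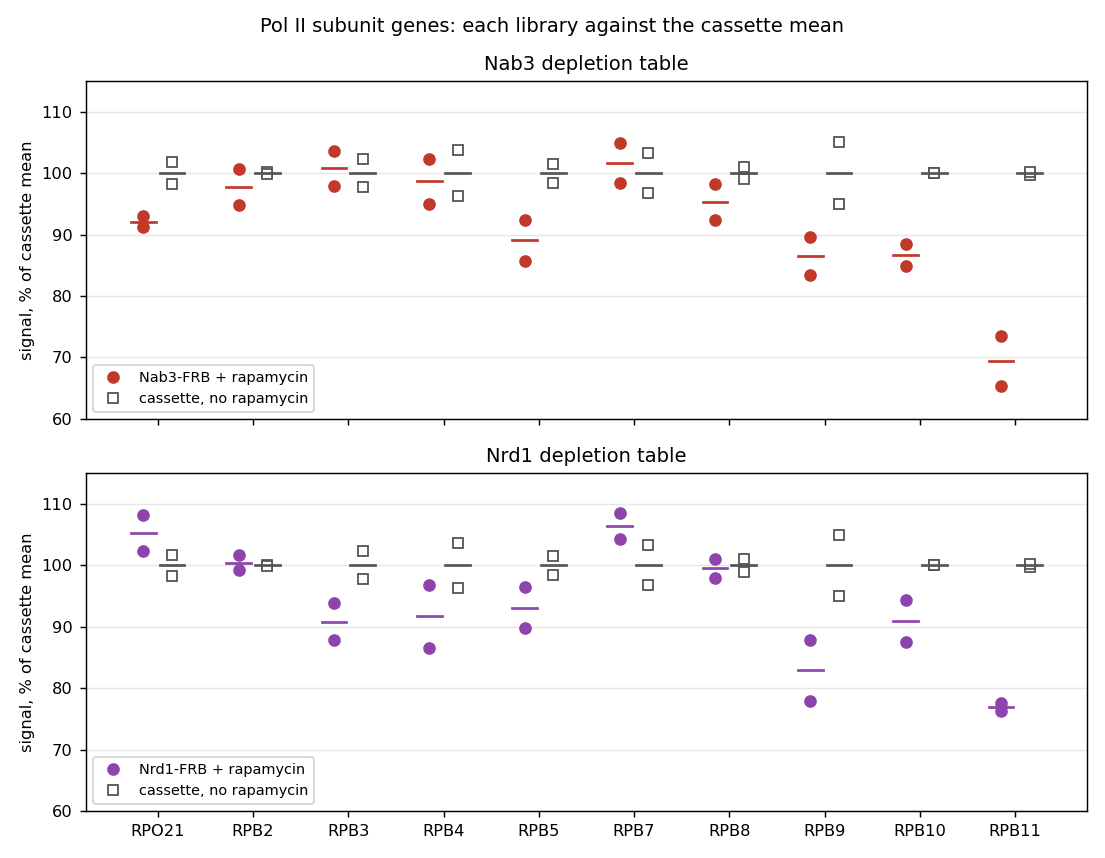
Normalised signal of each member in each library as a percentage of the mean of the cassette libraries of its table (upper panel Nab3 depletion, lower panel Nrd1 depletion; filled points depleted libraries, open squares cassette libraries, bars group means, n = 2 each; the axis starts at 60%). RPB11 lies lowest in both panels, and its depleted libraries lie far below the cassette libraries.

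Over the 10 members, 4 fell after Nab3 depletion (RPB5, RPB9, RPB10 and RPB11), 0 rose and 6 did not pass limma's test. Of all 6360 features tested in that table, 39.7% were called, 18.7% lower and 21.1% higher. In unadjusted terms 5 members had p under 0.05 by limma, all of them lower, as had 3054 of the 6360 features in either direction. On the recovered reads edgeR and DESeq2 also called 0 members higher, against 1363 and 1015 of all features. In 6 of the 10 both depleted libraries lay below both cassette libraries, as they did for 36.3% of all features, and in 0 of the 10 above, as they did for 34.7%. The median log2 fold change was -0.09 over the members and -0.005 over all features. Without cassette library 1 the count that fell was 1 member of the 10 and 650 of all features, against 1187 with every library. Without cassette library 2 it was 2 members. RPB10 and RPB11, 2 of the members, had adjusted p under 0.05 in the authors' deposited table, where 27.3% of all features did. Because each library is a bulk culture, fewer crosslinked cells and less crosslinked RNA per cell cannot be told apart.

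After Nrd1 depletion 2 of the 10 members fell (RPB9 and RPB11), 0 rose and 8 did not pass limma's test. Among all 6347 features tested, 35.3% were called, 17.8% lower and 17.5% higher, so the members' share that fell was close to that of all features. The same 2 members were the only ones with an unadjusted p under 0.05 by limma, which 2978 of the 6347 features had in either direction. By edgeR and DESeq2 0 members were called higher, against 1128 and 887 of all features. Both depleted libraries were below both cassette libraries in 5 members, against 37.0% of all features, and above them in 2, RPO21 and RPB7, against 35.8%. The median log2 fold change was -0.12 over the members and -0.004 over all features. Calls of members and of all features changed with the library left out, but in such fits the spread came only from the group that kept 2 libraries. The members' median lay at -0.08 without cassette library 1, -0.13 without cassette library 2 and -0.17 without Nrd1-FRB library 2. Without Nrd1-FRB library 1 it lay at -0.05. The authors' deposited table gave adjusted p under 0.05 for 1 member, RPB11, and for 23.6% of all features. Both comparisons share their cassette libraries, so like values in them are not independent.

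**Figure D2:**
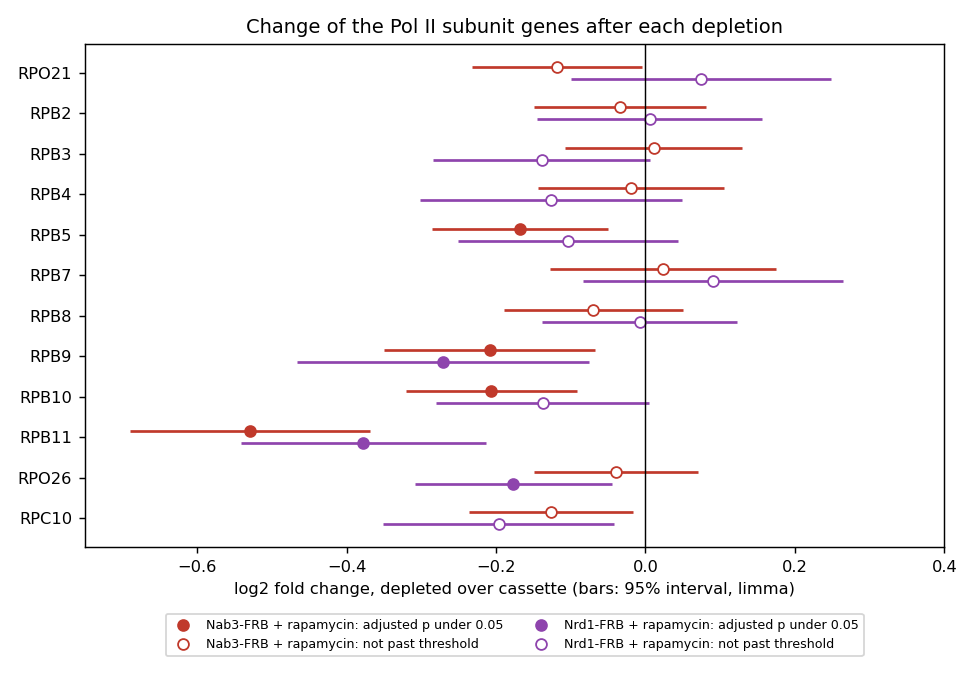
Log2 fold change of each subunit gene, depleted over cassette, with its 95% interval from limma (red Nab3-FRB, purple Nrd1-FRB; filled points passed an adjusted p of 0.05; n = 2 libraries a group). RPB11 and RPB9 are filled in both comparisons, and RPB2 sits near 0 in both.

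The level of each gene, as recovered reads per kilobase of its length, scaled to the reads of the library (RPKM), ranged widely between subunits that enter the enzyme in equal numbers. Among the 10 members the platform gene RPB10 was highest, with 855 and 886 RPKM in the Nab3-FRB libraries, 894 and 972 in the Nrd1-FRB libraries, and 1033 and 1019.7 in the cassette libraries. RPB5 followed, with 480.2 and 443 in the Nab3-FRB, 473 and 512 in the Nrd1-FRB and 541 and 518 in the cassette libraries. RPB8 had 397 and 419 in the Nab3-FRB, 426 and 443 in the Nrd1-FRB and 436 and 439 in the cassette libraries. Thus genes of subunits shared with the other nuclear polymerases took the first places among the members. Outside the list, RPC10 lay above RPB10 and RPO26 above RPB5 in each group, with cassette means of 1212 and 663.

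The stalk gene RPB4 had 422 and 389 in the Nab3-FRB, 362 and 408 in the Nrd1-FRB and 439 and 402 in the cassette libraries. RPB9 had 358 and 331 in the Nab3-FRB, 316 and 358 in the Nrd1-FRB and 429.95 and 384 in the cassette libraries. RPB8 and RPB4 overlapped in the Nab3-FRB and in the cassette libraries, and RPB4 and RPB9 in the cassette libraries. RPB11 had 170.1 and 190.2 in the Nab3-FRB, 205 and 203 in the Nrd1-FRB and 266 and 264 in the cassette libraries. RPB3 had 232 and 219 in the Nab3-FRB, 199.7 and 215 in the Nrd1-FRB and 235 and 222 in the cassette libraries. RPB11 was thus below RPB3 in the Nab3-FRB libraries and above it in the cassette libraries, both without overlap, and within its range in the Nrd1-FRB libraries. RPB11 also overlapped RPB7, the next gene, in the Nab3-FRB libraries. The order of the group means was otherwise the same in all 3 groups.

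Among the members, the lowest levels per length belonged to RPB7 and the long catalytic subunit genes. Level per length also differed with length over the features tested in the Nab3 table. The median cassette level was 123.5 RPKM up to 300 bases, 105 from 300 to 700, 63.7 from 2000 to 4000 and 47.2 over 4000. In the cassette libraries RPB10, RPB7, RPB2 and RPO21 each lay above the median of their class, in that order of classes. RPB7 had 161 and 170.4 in the Nab3-FRB, 179.8 and 174 in the Nrd1-FRB and 173 and 160.05 in the cassette libraries. RPB2 had 144 and 135 in the Nab3-FRB, 147 and 145 in the Nrd1-FRB and 147 and 145 in the cassette libraries. RPO21 came last, with 113 and 111 in the Nab3-FRB, 134 and 128 in the Nrd1-FRB and 123 and 126 in the cassette libraries. Its depleted libraries lay below the cassette after Nab3 depletion and above it after Nrd1 depletion.

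Over the members together, RPB11 took 2.40% and 2.78% of the reads in the Nab3-FRB libraries and 2.81% and 2.72% in the Nrd1-FRB libraries, against 3.44% and 3.51% in the cassette libraries. The members' summed share of each library was 2563 and 2475 RPM (the same scale without length) in the Nab3-FRB libraries and 2634 and 2700.05 in the Nrd1-FRB libraries, against 2799 and 2727 in the cassette libraries. All depleted libraries lay below both cassette libraries in this sum, to which the long genes RPO21 and RPB2 contribute most. Without those genes the sum was 1445 and 1405 RPM in the Nab3-FRB libraries and 1397 and 1504 RPM in the Nrd1-FRB libraries, against 1621 and 1543 RPM in the cassette libraries.

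**Figure D3:**
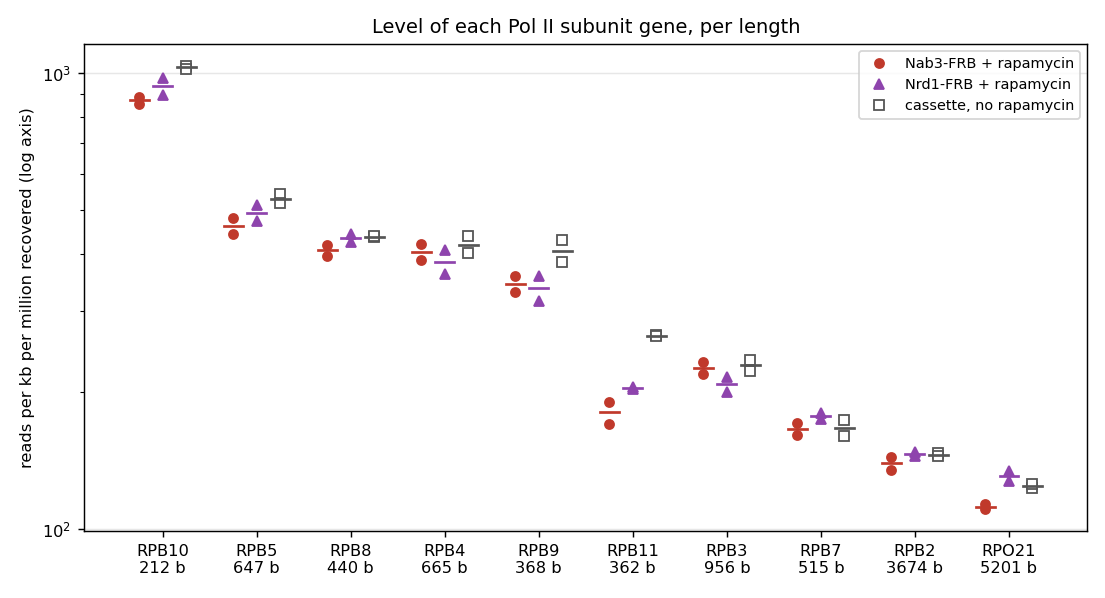
Level of each member per length, in RPKM of recovered reads on a log axis, ordered by the cassette mean (red circles Nab3-FRB, purple triangles Nrd1-FRB, open squares cassette, bars means, n = 2 each; gene length in bases below each name). RPB10 is highest and RPO21 lowest, and RPB11 shows the widest gap between depleted and cassette libraries.

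Change ran with gene length over all features, and most subunit genes are short, so each member was set beside the tested features of its length class. Among features of 300 to 700 bases, which hold 6 members, 22.3% fell and 19.9% rose after Nab3 depletion, with a median log2 fold change of -0.03. Among features over 4000 bases, which hold RPO21, 4.81% fell and 41.2% rose, with a median of 0.10. The corresponding shares after Nrd1 depletion were 21.8% fell and 16.8% rose in the shorter class (median -0.03), and 4.28% fell and 29.9% rose in the longer class (median 0.13). The difference between cassette libraries 1 and 2 also ran with length, from a median of 0.07 in features up to 300 bases to -0.04 in those over 4000 bases.

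RPB11 lay low within its class: 3.81% of the 1576 features had a lower log2 fold change after Nab3 depletion, and 14.7% of 1568 after Nrd1 depletion. RPB9 was less extreme, with 23.2% and 23.5% lower. RPO21, whose own change after Nab3 depletion did not pass the test, had only 7.49% of the 187 features of its class below it, and after Nrd1 depletion 41.2%. RPB2 had 33.1% and 40.9% below it. Of the 10 members, 7 lay below the median of their class after Nab3 depletion and 8 after Nrd1 depletion. These are descriptions, with no test of the members against their class.

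**Figure D4:**
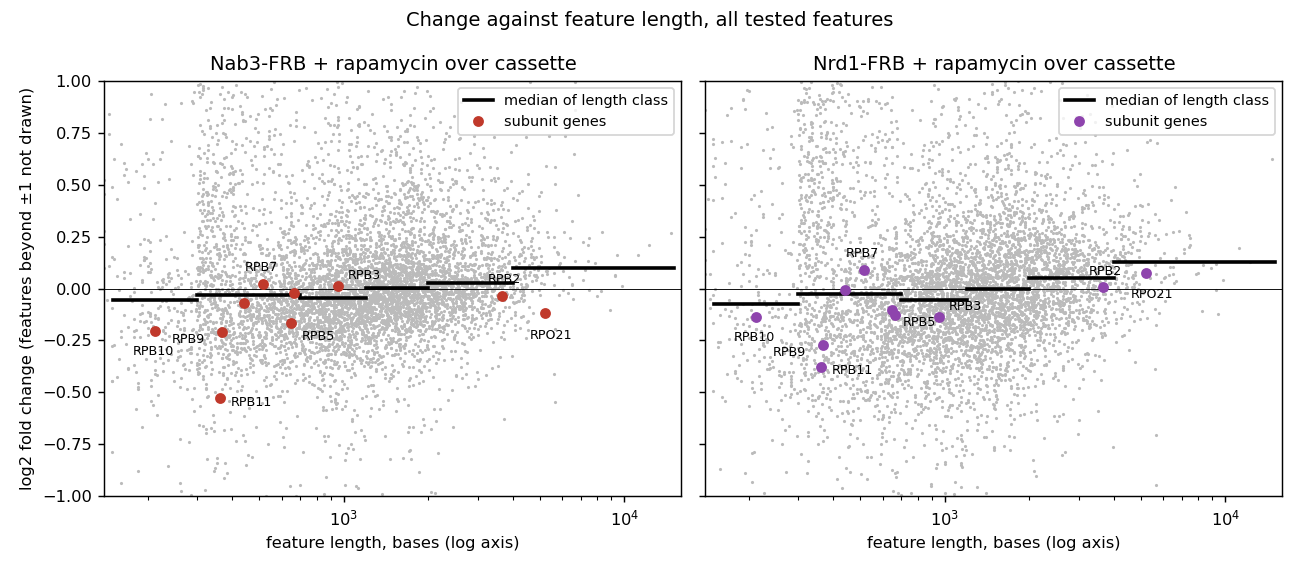
Log2 fold change of every tested feature (grey) against its length in bases on a log axis, with the members in colour and the median of each length class as a black bar (left Nab3-FRB, right Nrd1-FRB, each over cassette; features beyond a log2 change of 1 are not drawn). RPB11 lies below most features of its length, and RPO21 below the median of its class in both panels.

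The genes next to the members were called in both directions. None of the 10 members overlaps another annotated gene, and gaps to the next gene run from 86 to 846 bases. Of their 20 neighbours, 3 rose and 6 fell after Nab3 depletion, and 2 rose and 7 fell after Nrd1 depletion. Over all features 21.1% rose and 18.7% fell after Nab3 depletion, and 17.5% rose and 17.8% fell after Nrd1 depletion. TOP1, the topoisomerase I gene that lies 425 bases downstream of RPB11 on the same strand, rose in both comparisons (0.20 ± 0.05, adjusted p = 0.00976, and 0.22 ± 0.06, adjusted p = 0.0264), while RPB11 fell. SIN3, a histone deacetylase subunit gene that diverges from RPB11, did not pass in either (0.08 ± 0.05 and 0.12 ± 0.06). RPB9's divergent neighbour MNP1, a mitochondrial ribosomal protein gene, fell with it (-0.21 and -0.41), and its convergent neighbour AFT1, an iron regulator, fell after Nrd1 depletion (-0.29 ± 0.07, adjusted p = 0.0161).

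Both neighbours of RPB8, itself not past the test, fell in both comparisons. DSC3, which converges on it, had log2 fold changes of -0.30 and -0.66, and ISU2, an iron-sulphur scaffold gene upstream on the same strand, of -0.23 and -0.59. MGM1, a mitochondrial fusion GTPase gene that converges on RPB10, rose in both (0.18 ± 0.05 and 0.21 ± 0.06), and NPT1, which diverges from RPB10, fell after Nrd1 depletion (-0.23 ± 0.05). YUR1, RIB7 and DIT1, which converge on RPB4, RPB5 and RPB7, fell after Nab3 depletion (-0.31 ± 0.08, -0.19 ± 0.06 and -0.36 ± 0.12), and HIS6, which converges on RPB3, fell after Nrd1 depletion (-0.20 ± 0.06). Of the 9 neighbour calls after Nab3 depletion, that of YAK1 alone held whichever library was left out, and TOP1, for one, had an adjusted p of 0.131 without cassette library 1. Of the 9 calls after Nrd1 depletion 0 did, with a highest adjusted p of 0.0585 to 0.370, each without a cassette library. YAK1, a kinase gene that diverges from RPB4, rose after Nab3 depletion (0.38 ± 0.07, adjusted p = 0.000747) and fell after Nrd1 depletion (-0.43 ± 0.08, adjusted p = 0.00743). The strand setting of the read counting is not given in the sources used here, so sense and antisense reads over a gene cannot be told apart.

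The subunit genes of RNA polymerases I and III were counted in the same way. Of all features, 18.7% fell and 21.1% rose after Nab3 depletion, and 17.8% fell and 17.5% rose after Nrd1 depletion. Of 9 Pol I subunit genes 1 fell after Nab3 depletion, RPA14 (-0.40 ± 0.07), and 0 rose by limma, edgeR or DESeq2 or by unadjusted p. Of 10 Pol III subunit genes 3 fell, among them RPC37 (-0.41 ± 0.06) and RPC11 (-0.33 ± 0.09), and likewise 0 rose. After Nrd1 depletion 0 of the 9 Pol I genes passed limma's test, with 2 higher and 0 lower at an unadjusted p under 0.05 and 1 called higher by DESeq2. Of the Pol III genes 2 rose, RPC34 (0.24 ± 0.06) and RPC25 (0.19 ± 0.06), and 2 fell, RPC11 (-0.28 ± 0.09) and RPC31 (-0.21 ± 0.07). After Nab3 depletion the median log2 fold change was -0.02 for the Pol I genes and -0.04 for the Pol III genes, beside -0.09 for the Pol II members. After Nrd1 depletion it was 0.05 and 0.06, beside -0.12 for the members. No test compared the lists. The Pol I and Pol III lists leave out the subunit genes shared with Pol II, such as RPB5 and RPB10. Those genes were counted only with the Pol II subunits, and RPC40 and RPC19 only in the Pol I list.

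Genes whose products work with Pol II moved in both directions, as all features did, but 0 elongation factor genes rose after Nrd1 depletion. By limma 21.1% of all features rose and 18.7% fell after Nab3 depletion. The shares were 17.5% and 17.8% after Nrd1 depletion, and no list was tested against them. Of 19 general transcription factor genes, 2 rose and 5 fell after Nab3 depletion. Those that rose were TFA1, the large TFIIE subunit (0.73 ± 0.05), and RAD3, a TFIIH helicase (0.32 ± 0.05), and the lowest were TOA2 of TFIIA (-0.33 ± 0.07) and SPT15, the TATA-binding protein (-0.30 ± 0.07). After Nrd1 depletion 2 rose and 4 fell, TFA1 (0.35 ± 0.07) and RAD3 (0.35 ± 0.06) being higher and TOA2 (-0.50 ± 0.09) and TFB3 of TFIIH (-0.34 ± 0.09) lowest. Of 25 Mediator genes, 4 rose and 4 fell after Nab3 depletion, with GAL11 (0.33 ± 0.06) and ROX3 (0.23 ± 0.07) highest and MED8 (-0.45 ± 0.09) and SRB5 (-0.44 ± 0.08) lowest. After Nrd1 depletion 3 rose and 3 fell, with GAL11 (0.39 ± 0.06) and MED1 (0.31 ± 0.07) highest and SRB6 (-0.56 ± 0.10) and SOH1 (-0.48 ± 0.10) lowest.

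Of 13 elongation factor genes, 1 rose and 3 fell after Nab3 depletion: LEO1 of the PAF complex rose (0.25 ± 0.06), and ELF1 (-0.20 ± 0.06) and SPT4 (-0.18 ± 0.07) were lowest. By edgeR 3 were also lower there, and by DESeq2 0. After Nrd1 depletion 6 fell by limma, CDC73 of the PAF complex (-0.31 ± 0.08) and SPT4 (-0.26 ± 0.08) being lowest. By edgeR 6 were lower too, but by DESeq2 only 1, and 0 rose by limma, edgeR or DESeq2 or by unadjusted p. The median of the elongation factor genes was -0.14, close to that of the members. Of 9 genes for enzymes that act on the C-terminal repeats of Rpb1, the phosphatase gene FCP1 rose (0.20 ± 0.06 and 0.23 ± 0.06) and the isomerase gene ESS1 fell (-0.55 ± 0.07 and -0.45 ± 0.07) after each depletion, and the phosphatase gene RTR1 fell after Nrd1 depletion (-0.43 ± 0.12). Of 12 genes for assembly and turnover of Pol II, 4 rose and 2 fell in each comparison. DEF1, needed to degrade stalled Rpb1, rose most (0.48 ± 0.05 and 0.66 ± 0.07), followed by RBA50 (0.27 ± 0.06 and 0.41 ± 0.06). IWR1, which brings the assembled enzyme into the nucleus, fell in both (-0.28 ± 0.06 and -0.47 ± 0.08), ELC1 fell after Nab3 depletion (-0.36 ± 0.07) and GPN2, a GTPase of nuclear import, after Nrd1 depletion (-0.24 ± 0.08). The median of this list was 0.02 after Nab3 depletion, and -0.01 with upper-quartile scaling.

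Of the 20 such genes named here from the Nab3 comparison, 14 held whichever library was left out, and RPC11, ROX3, ELF1, SPT4, FCP1 and IWR1 did not (adjusted p = 0.133, 0.173, 0.121, 0.521, 0.105 and 0.0602 at the highest, each without a cassette library). In every alternative 11 held: TOA2, SPT15 and RBA50 also lost their calls in a fit with no variance trend (adjusted p = 0.0603, 0.0715 and 0.0596). Of the 21 from the Nrd1 comparison only DEF1 held in every fit; each of the other 20 was lost without cassette library 1 or 2 or both, with a highest adjusted p between 0.0562 (RBA50) and 0.406 (RPC11). Without either cassette library, most of these lists had fewer calls in both comparisons, and so had all features. Without Nrd1-FRB library 2, most of these lists and all features had more calls than with it. In such fits the spread came only from the group that kept 2 libraries.

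**Figure D5:**
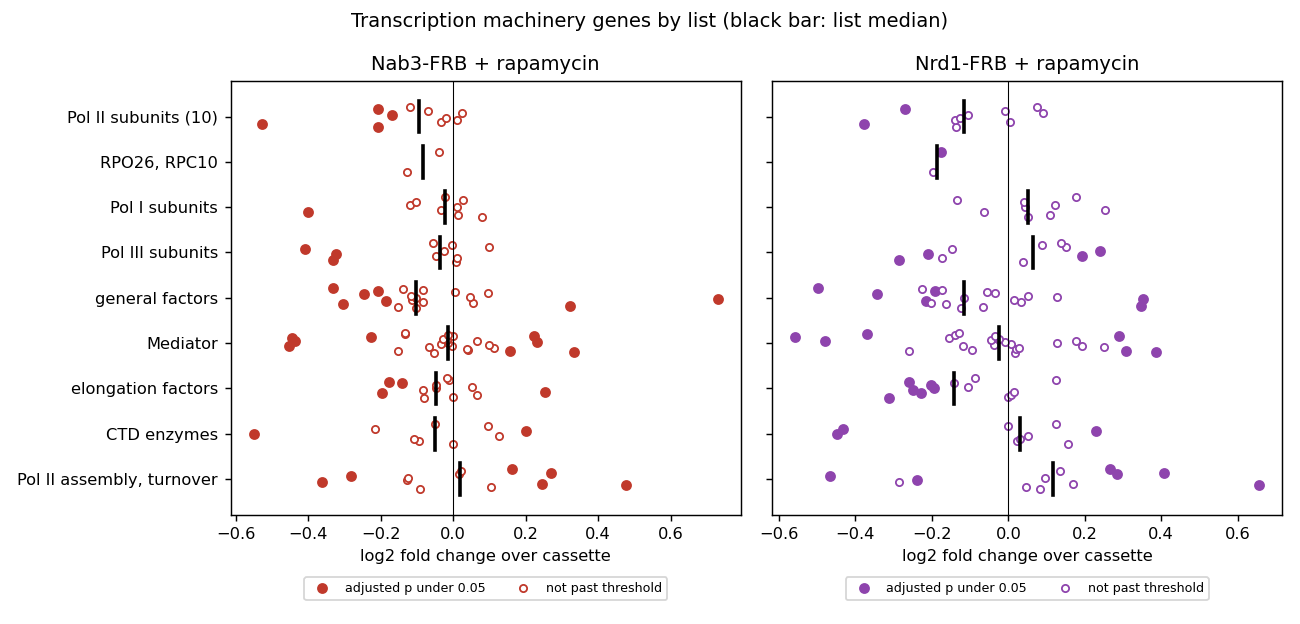
Log2 fold change of every gene in each list of transcription machinery genes (left Nab3-FRB, right Nrd1-FRB, each over cassette; filled points passed an adjusted p of 0.05, open points did not, black bars are list medians; vertical spread is only to separate points). The 10 Pol II subunit genes lie at or below 0.09, TFA1 lies farthest right on the left panel, and DEF1 on the right panel.

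The profile of the members' mean over the 6 libraries, as log2 differences from the cassette mean of each table, was most like that of SPH1 (Euclidean distance 0.0200), TRS130 (0.0255), SPC25 (0.0274), VAC17 (0.0485) and CLB4 (0.0496). The median distance over 6320 other features was 0.458. Among the members RPB5 lay nearest to the mean profile (0.0945) and RPB11 farthest (0.700). Of the genes of the depleted proteins, NRD1 was higher by 1.98 ± 0.06 after Nab3 depletion and by 2.07 ± 0.07 after Nrd1 depletion on the log2 scale, and NAB3 differed by -0.16 ± 0.05 and -0.12 ± 0.06 (adjusted p = 0.0270 and 0.126). The NAB3 call after Nab3 depletion was lost without cassette library 1 (adjusted p = 0.153) or 2 (0.192).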

How the data were processed

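The authors' deposited tables hold a normalised signal per feature: read counts scaled by a factor for each library and table, as the values show, since 100% of them come out as whole reads within 0.01 reads. The submitters' processing notes name Bowtie 1.1.1, DESeq and the builds R64 and sacCer3. How reads were counted, on which strand and with what treatment of multiple mapping is not given in the sources used here. Per the file headers, log2 fold changes with adjusted p-values stand in the authors' deposited comparison tables. Such p-values are quoted only where that table is named, and the gene length is also theirs. All other log2 fold changes and adjusted p-values were computed here. The cassette reads were the same in both tables for all 6677 features.

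Each comparison was fitted within its own table with limma 3.58.1 (R 4.3.3; eBayes with trend) on log2(value + 1), which understates the change of low features, keeping features whose mean was at least 10, with Benjamini-Hochberg adjustment and a threshold of 0.05. Groups were taken from sample titles and columns matched by name; the Nab3-FRB columns are numbered 2 and 3 and their samples 1 and 2, so these were matched to their group only. Recovered reads, from 548 to 7913 per library for the members, were tested with edgeR 4.0.16 and DESeq2 1.42.0 as alternatives. Other alternatives were pseudocounts of 0.5 and 5, no filter, a mean of at least 50, TMM and upper-quartile scaling, no variance trend, each library left out and a replicate block. On simulated data the Nab3 fit recovered 47 of 67 genes changed 1.25-fold and 62 of 67 changed 1.5-fold (6353 genes), and the Nrd1 fit 27 and 59 of 67 (6352 genes). The simulation used the same spread for every gene and group, and changed far fewer features than were called in the data. Chi-square over degrees of freedom between libraries of a group was 4.99 for Nab3-FRB, 11.3 for Nrd1-FRB and 3.00 for the cassette, so none was a repeat deposit.

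Positions, neighbours and sequences were read from the RefSeq R64 genome and annotation: 5900 features matched by name, and 5895 of them, with all 12 subunit genes, had a deposited length equal to the annotated length minus 1. Named genes were the 12 subunit genes, the 2 highest and 2 lowest calls of each list, neighbours that passed the test, NAB3, NRD1 and the 5 features nearest in profile; SIN3 was added after its values were seen. The members and lists were chosen with earlier results of these data known.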

Additional observations from a re-analysis of the deposited data

Results flagged for a closer look

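RPO21 and YAK1 were flagged because every Nab3-FRB library lay on one side of both cassette libraries and every Nrd1-FRB library on the other; this difference between the depletions was not tested, since the tables were normalised separately. They are 2 of 57 genes checked. The same count was not made over all features, so whether 2 is many or few is not known. In each comparison alone, 34.7% to 37.0% of all features had both depleted libraries on a given side of both cassette libraries. RPO21 had log2 fold changes of -0.12 after Nab3 depletion and 0.074 after Nrd1 depletion, and neither passed the test. YAK1, the divergent neighbour of RPB4, had 1872 and 2138 in the Nab3-FRB libraries, against 1455 and 1625 in the cassette (log2 fold change 0.38, adjusted p = 0.000747). In the Nrd1-FRB libraries it had 1008 and 928, against 1232 and 1377 in the cassette (-0.43, adjusted p = 0.00743). The Nrd1 call of YAK1 was lost without cassette library 2 (adjusted p = 0.0889).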

How the results depend on the processing

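Of the alternatives to single-gene results, 1026 kept the direction and the side of the threshold, 153 lost the threshold, 11 gained it and 12 changed direction. After Nab3 depletion, leaving out 1 library gave 1672 to 2808 features called, 650 to 1401 lower, 1 to 4 members lower and a members' median of -0.11 to -0.083. Without the variance trend 721 features and 1 member were lower, with DESeq2 766 features and 2 members, and upper-quartile scaling gave a median of -0.12 over the members. After Nrd1 depletion, leaving out 1 library gave 641 to 3622 features called, 376 to 1758 higher, 265 to 1864 lower and 0 to 6 members lower. Without the trend 703 features and 1 member were lower, and with DESeq2 1 member was. Changes of direction were all of members whose change was near 0. With upper-quartile scaling after Nab3 depletion, RPB3 was at -0.020 and RPB7 at -0.0070. With 1 library left out, RPB2 ranged from -0.077 to 0.0092, RPB3 from -0.029 to 0.050, RPB4 from -0.073 to 0.034 and RPB7 from -0.024 to 0.070 after Nab3 depletion, and RPB2 from -0.012 to 0.023 and RPB8 from -0.030 to 0.015 after Nrd1 depletion. A lone library left in a group was assumed to vary like the other group. The causes were not tested.

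With a replicate block in the Nrd1 comparison 2243 features were called, against 2238 without it, and RPO26 had an adjusted p of 0.0899. Deviations of same-numbered libraries correlated at 0.0133 over 6347 features in 2 pairs. With 2 libraries a group the deviations mirror each other, so this value cannot decide whether the numbers mark a shared culture or day. For the Nab3 comparison no paired analysis was possible because the Nab3-FRB columns carry other numbers than their samples. With 2 libraries a group, the smallest simulated fold, larger than the change of most members, was often missed. The simulated spread was the same for all genes and groups, so the share missed in the data may differ.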
